A study of Mus musculus with 6 samples.

Results

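miR-122 is the microRNA (miRNA) for which hepatocytes are best known, and both arms of its precursor were measured here in total liver RNA. The members were taken by name, as every mouse miRNA of the array design whose name starts with mmu-miR-122-. This gave 2 of the 1247 mouse miRNAs, mmu-miR-122-5p and mmu-miR-122-3p. Male C57BL/6 mice of 7 weeks were injected intraperitoneally 2 times a week for 10 weeks. In the CCl4 group the injections held carbon tetrachloride, which injures hepatocytes and leads to fibrosis, at 0.6 mL/kg body weight in corn oil. The corn oil group received the same volume of corn oil alone, so that both groups carried the oil and the injections. Each group had 3 livers, and each liver had its own 1-color array, labeled with Cy3.

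miR-122 is cut from a transcript that hepatocytes make under the control of liver transcription factors such as HNF4A, and other cell types of the liver make little of it. The 5p arm is the guide strand that is loaded into the silencing complex, while the 3p arm is mostly degraded. Known targets of miR-122 include Slc7a1, an arginine and lysine transporter, and Aldoa, a glycolytic enzyme, and mice without miR-122 develop fatty liver, fibrosis and tumors. Injured hepatocytes release miR-122 into the blood.

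The sequences below are those of the miRNAs that moved most like miR-122-5p or that are described beside it, and they come from RefSeq (GRCm38.p6), where 14 of 18 names looked up were matched. They are mature miRNAs written 5′ to 3′, with the seed, bases 2 to 8, in capitals. The names without a match were miR-122-5p, miR-122-3p, miR-378a-3p and miR-6378.
miR-192-5p: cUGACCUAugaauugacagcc
miR-215-5p: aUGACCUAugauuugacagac
miR-194-5p: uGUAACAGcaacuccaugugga
miR-148a-3p: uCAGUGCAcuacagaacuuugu
miR-101b-3p: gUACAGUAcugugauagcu
miR-30a-5p: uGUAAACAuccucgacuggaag
miR-30c-5p: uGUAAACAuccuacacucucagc
miR-192-5p and miR-215-5p have the same seed, and so do miR-30a-5p and miR-30c-5p. The other 3 have seeds of their own among these.

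The software detected 186 to 193 miRNAs on the corn oil arrays, 245 and 227 on CCl4 replicates 1 and 2, and 334 on CCl4 replicate 3, which stood apart from the other arrays. The 6 arrays shared 1 slide, where CCl4 livers filled one row and corn oil livers the other, so treatment and slide row cannot be told apart. CCl4 replicate 3 also differed in how its totals were made. The software multiplies the mean spot signal by an effective feature size, which was the default of 0.6 on 5 arrays and was estimated at 0.818 on CCl4 replicate 3. The total signal per unit of mean spot signal was therefore 0.283 on the 5 arrays and 0.385 on this one, for all miRNAs alike. Shares and normalized values do not depend on this factor, while totals without normalization do. As given below, miR-122-5p, miR-192-5p and miR-194-5p were low on this array and 2 endocrine miRNAs were high. Most of the listed miRNAs that are abundant in hepatocytes but widely expressed had higher totals there than in the other CCl4 livers. So did most of all the miRNAs detected on every array. Whether the RNA on this array is that of the liver its label names could not be checked. The values of miR-122 that rest on it are therefore given with and without it.

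miR-122-5p was lower on every CCl4 array than on any corn oil array, slightly in CCl4 replicates 1 and 2 and many-fold in CCl4 replicate 3. Its total signal, an intensity with the background subtracted and no normalization between arrays, was 17855, 16613 and 18345 in corn oil replicates 1, 2 and 3. In the CCl4 livers the total signal was 13110, 15544 and 2158. The groups did not overlap, and CCl4 replicate 3 lay far below the other 2 CCl4 livers. The mean total signal was 17604 ± 893 (SD, n = 3) in the corn oil group and 10271 ± 7130 (SD, n = 3) in the CCl4 group. Without CCl4 replicate 3 the CCl4 mean was 14327 ± 1721 (SD, n = 2), so that the corn oil mean was 1.23 times higher. Among the 166 miRNAs detected on all 6 arrays, 4 (2.41%) had every CCl4 total under every corn oil total. These were miR-122-5p, miR-192-5p, miR-194-5p and miR-101b-3p.

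The size of the gap between CCl4 replicate 3 and the others depended on the measure. The mean total signal of CCl4 replicates 1 and 2 was 6.64 times that of CCl4 replicate 3, and the corn oil mean was 8.16 times. On the spots themselves the gap was wider. The mean signals of the spots of each miR-122-5p probe, summed over both probes, came to 63148, 58757 and 64883 in the corn oil livers, 46367 and 54975 in CCl4 replicates 1 and 2, and 5601 in CCl4 replicate 3. By this measure CCl4 replicates 1 and 2 were 9.05 times, and the corn oil livers 11.1 times, above CCl4 replicate 3. The brightest miRNA, miR-6366, had summed spot means of 312357 on CCl4 replicate 3 against 283839 to 299862 on the other arrays, so that its signal was not reduced there.

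Both probes of miR-122-5p showed the same order of arrays. Each probe is printed in 20 spots. The brighter probe had mean spot signals of 43639 ± 1750, 40300 ± 2470 and 45220 ± 1810 in the corn oil livers (SD over 20 spots). In the CCl4 livers they were 31655 ± 1800, 37643 ± 1910 and 3840 ± 213. The signal of the brighter probe was 2.10 to 2.26 times that of the dimmer one on all 6 arrays, CCl4 replicate 3 included at 2.22. The spots did not overlap, since the highest spot of the brighter probe on CCl4 replicate 3 was 4215 and its lowest spot on any other array was 28427. The spots of a probe varied by a coefficient of variation of 2.97% to 6.13%. All 40 spots of miR-122-5p were well above background on every array, and no spot was saturated.

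**Figure D1:**
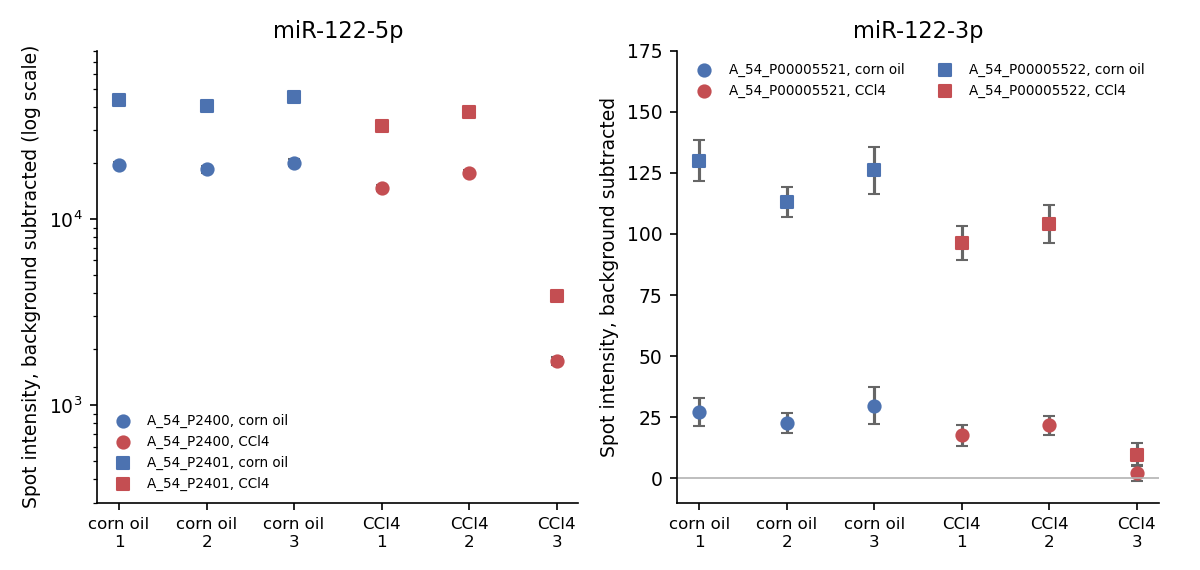
Mean spot intensity of the 2 probes of miR-122-5p (left, log scale) and of miR-122-3p (right, linear scale) on each of the 6 arrays, with circles and squares for the 2 probes and bars for the SD over 20 spots, which are smaller than the symbols on the left. Both probes of both arms are lower in CCl4 replicates 1 and 2 than in the corn oil livers, and CCl4 replicate 3 lies far below, with the 3p probes at 9.75 and 2.12.

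The passenger arm followed the guide arm. The total signal of miR-122-3p was 44.6, 38.3 and 44.0 in the corn oil livers and 32.2 and 35.5 in CCl4 replicates 1 and 2, and it was not detected in CCl4 replicate 3. Its mean was 42.3 ± 3.46 (SD, n = 3) in the corn oil livers and 33.8 ± 2.32 (SD, n = 2) in the 2 CCl4 livers in which it was detected. The groups did not overlap in these values, but the closest were 38.3 in corn oil replicate 2 and 35.5 in CCl4 replicate 2. How many other miRNAs were without overlap on these arrays was not counted. miR-122-3p was dim, with 80.0% to 95.0% of its 40 spots well above background in the corn oil livers. The figures were 57.5% and 75% in CCl4 replicates 1 and 2, and 0% in CCl4 replicate 3. The brighter 3p probe had mean spot signals of 113 to 130 in the corn oil livers, 96.2 and 104 in CCl4 replicates 1 and 2, and 9.75 ± 4.76 (SD over 20 spots) in CCl4 replicate 3.

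The ratio of the arms could be read on the 5 arrays on which both were detected, and it did not separate the groups. With the signals of the probes summed, miR-122-5p was 401, 434 and 417 times miR-122-3p in the corn oil livers and 407 and 438 times in CCl4 replicates 1 and 2. In CCl4 replicate 3 the 3p probes were not well above background, so no ratio is given. Probes differ in how they bind and label, so the ratio is not one of molecules, and only its change between arrays can be read.

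As a share of the signal of all detected miRNAs, which needs no scaling between arrays, miR-122-5p took 10.1%, 9.79% and 10.9% in the corn oil livers. In the CCl4 livers it took 7.39%, 8.91% and 0.682%. The mean share was 10.3% ± 0.592 (SD, n = 3) in the corn oil group and 5.66% ± 4.38 (SD, n = 3) in the CCl4 group, or 8.15% ± 1.08 (SD, n = 2) without CCl4 replicate 3. The groups did not overlap, and the two-sided exact permutation test of the log2 share gave p = 0.1, the smallest p that 3 livers against 3 allow. How many other miRNAs had shares without overlap was not counted, so it is not known how unusual this is. The means of the log2 shares differed by -1.53, and by -0.34 without CCl4 replicate 3, where the smallest p that the exact permutation test allows is 0.2. The share of CCl4 replicates 1 and 2 was on average 12.0 times that of CCl4 replicate 3.

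miR-122-5p was the third brightest miRNA on 5 arrays and not the brightest on any. miR-6366 and miR-3963 lay above it on all 6 arrays and took 45.3% to 49.1% and 17.8% to 19.8% of the detected signal on the 5 arrays. With these 2 left out of the sum, miR-122-5p made up 31.2%, 30.6% and 32.2% of the remaining signal in the corn oil livers and 20.6%, 25.5% and 1.5% in the CCl4 livers. In CCl4 replicate 3 its rank was 21 of 334, next to miR-23a-3p with a total signal of 2178 and miR-451a with 2050. The fourth place on the 5 arrays was held by miR-5100, with total signals of 6901 to 7347, and so a wide gap on both sides kept miR-122-5p at rank 3 there. miR-122-3p held rank 73 or 74 in the corn oil livers and ranks 117 and 97 in CCl4 replicates 1 and 2.

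**Figure D2:**
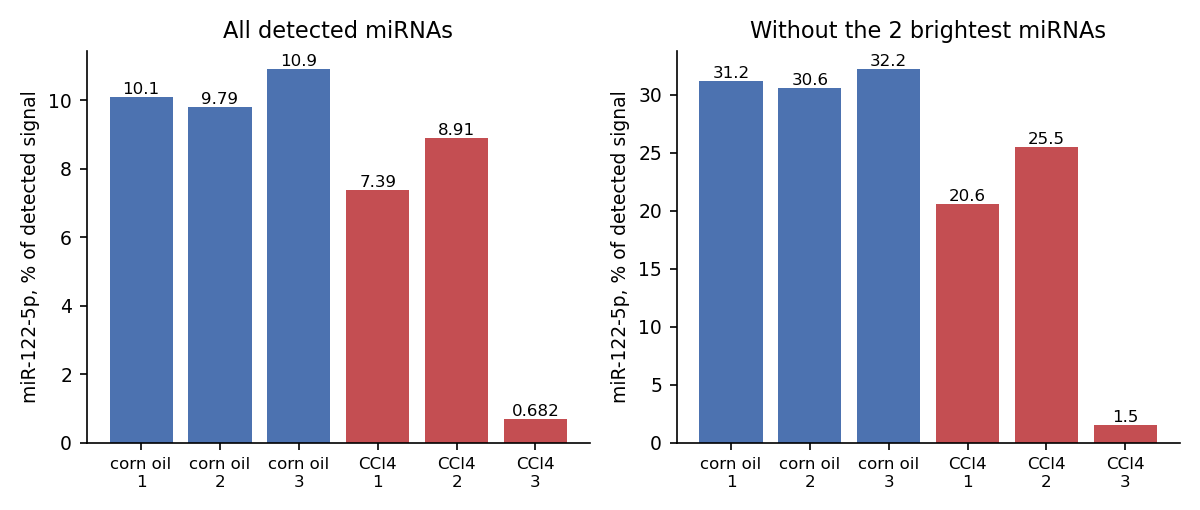
Share of miR-122-5p in the summed total signal of the detected miRNAs on each array, in percent, with all detected miRNAs (left) and without miR-6366 and miR-3963 (right). Bars are single arrays. The 3 corn oil livers are at 9.79% to 10.9% on the left, CCl4 replicates 1 and 2 at 7.39% and 8.91%, and CCl4 replicate 3 at 0.682%.

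That fixed rank decided what the main comparison could show. For this, limma was run on the quantile-normalized log2 totals of the 166 miRNAs found on every array. Calls needed more than a 2-fold change together with an adjusted p (Benjamini-Hochberg) below 0.05. This called 20 of the 166 miRNAs (12.0%), and miR-122-5p was not among them. Its log2 change, CCl4 minus corn oil, was -1.49 (standard error 1.28, limma adjusted p = 0.47, n = 3 livers per group), within the spread of the CCl4 livers. Its normalized log2 level was 13.90 ± 0.00 (SD) in the corn oil group and 12.41 ± 2.57 (SD) in the CCl4 group. Quantile normalization gives the same value to every array on which a miRNA has the same rank, so 5 of the 6 values were equal by construction. Without CCl4 replicate 3 the change became 0.00 for the same reason. The fit on quantile-normalized values therefore holds no information on miR-122-5p beyond CCl4 replicate 3.

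Scalings that keep the distances between miRNAs gave a difference in CCl4 replicates 1 and 2 as well. With each array scaled to the 75th percentile of the 166 miRNAs, the scaled log2 levels of miR-122-5p were 6.77, 6.77 and 6.83 in the corn oil livers and 5.56, 6.14 and 1.58 in the CCl4 livers. The log2 change with all arrays was -2.36 (standard error 1.15, limma adjusted p = 0.20), against a median of -0.16 over the 166 miRNAs. Without CCl4 replicate 3 the change was -0.94 (standard error 0.18, limma adjusted p = 6.5e-03) against a median of -0.19. miR-122-5p passed the adjusted p in this fit but stayed under 2-fold, and 64 of the 166 miRNAs (38.6%) were also lower at that adjusted p. Without normalization the change was -1.21 (adjusted p = 0.28) with all arrays, against a median of 0.99. Without CCl4 replicate 3 it was -0.30 (standard error 0.12, adjusted p = 0.079), against a median of 0.45. Relative to those medians, the change without CCl4 replicate 3 was -0.75 in both fits. The scaling takes the same value off every miRNA of an array, so this equality is fixed by construction. Other bright miRNAs also fell in the scaled fit without CCl4 replicate 3, namely miR-6366 by -0.68, miR-3963 by -0.61 and miR-5100 by -0.70. Without normalization their differences were -0.04, 0.03 and -0.06.

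**Figure D3:**
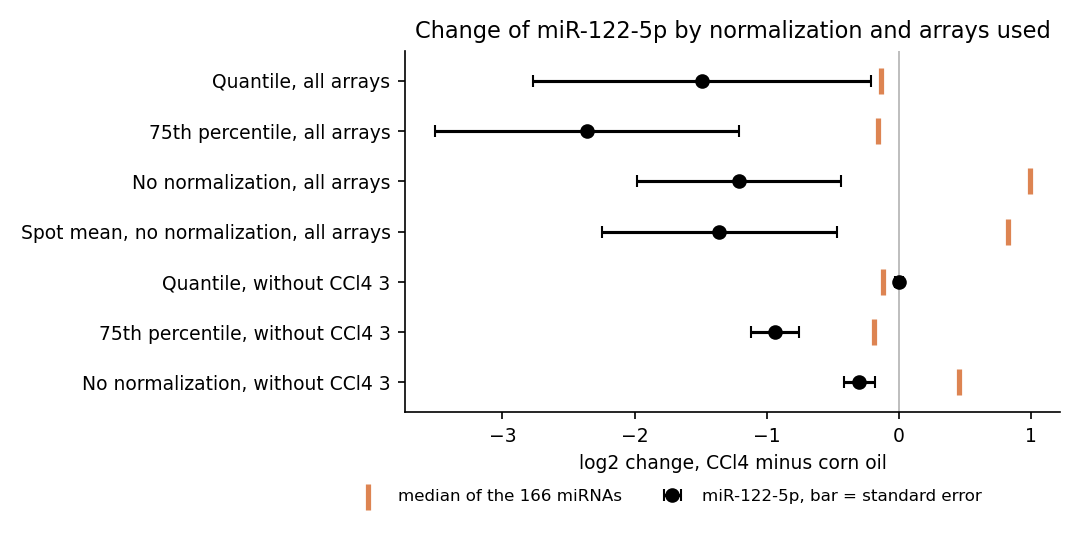
The log2 change of miR-122-5p, CCl4 minus corn oil, in 7 limma fits (points, with the standard error as bars) and the median change of the 166 miRNAs in the same fit (orange marks). The point lies left of the median in every fit but quantile normalization without CCl4 replicate 3, where it is 0.00 by construction.

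Both arms could be fitted together on the 5 arrays without CCl4 replicate 3, on all of which 170 miRNAs were detected. With the 75th percentile scaling, the log2 change of miR-122-3p was -0.99 (standard error 0.15, limma adjusted p = 3.1e-03) and that of miR-122-5p was -0.97 (standard error 0.17, adjusted p = 4.4e-03). Both passed the adjusted p and neither reached 2-fold, where 70 of the 170 miRNAs (41.2%) were lower at that adjusted p. Without normalization the changes were -0.32 (adjusted p = 0.065) for miR-122-3p and -0.30 (adjusted p = 0.079) for miR-122-5p. Quantile normalization separated the arms. It gave -1.19 (adjusted p = 0.011) for miR-122-3p, which was 1 of 28 called among the 170 miRNAs (16.5%), and 0.00 for miR-122-5p with its fixed rank.

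Other miRNAs of hepatocytes showed how far the pattern was shared. The hepatocyte-enriched list had 5 members, of which 3 were detected on all arrays. miR-192-5p and miR-194-5p, which lie together in the genome and are known from liver and gut epithelium, moved with miR-122-5p. The total signal of miR-192-5p was 1473, 1370 and 1422 in the corn oil livers and 1004, 1216 and 203 in the CCl4 livers. That of miR-194-5p was 629, 547 and 618 in the corn oil livers and 407, 508 and 96.2 in the CCl4 livers. Both were below the corn oil range on every CCl4 array and lowest in CCl4 replicate 3. miR-148a-3p, abundant in hepatocytes, had total signals of 447, 378 and 418 against 402, 426 and 292, and only CCl4 replicate 3 lay outside the corn oil range. miR-802-5p, a miRNA of liver and pancreas, was dim, with total signals of 13.0, 4.63 and 4.53 in the corn oil livers and 17.0 and 22.4 in CCl4 replicates 1 and 2, and it was not detected in CCl4 replicate 3. In those 2 CCl4 livers it was higher than in any corn oil liver, opposite to miR-122-5p, and it was not tested. Between those 2 and the corn oil livers, the median log2 difference of the 166 miRNAs was 0.45 and 31 were below 0. Higher totals were therefore usual there, and how many lay above without overlap was not counted. miR-215-5p, with the seed of miR-192-5p, was not detected on any array.

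With quantile normalization and all arrays, 0 of these 3 tested miRNAs was called, and their median log2 change was -1.97 against -0.14 for all 166. At an unadjusted p under 0.05 the count was 0 of 3, and 48 of all 166. With the 75th percentile scaling and without CCl4 replicate 3, all 3 were lower at the adjusted p, as were 38.6% of all 166, with a median of -1.0 against -0.19. There miR-192-5p changed by -1.0 (standard error 0.19, limma adjusted p = 6.2e-03) and miR-194-5p by -1.03 (adjusted p = 6.5e-03), and both were called, as were 26 of the 166 miRNAs (15.7%). miR-148a-3p changed by -0.64 (adjusted p = 0.013) in that fit, but without normalization its difference was 0.00.

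Among the 6 miRNAs that hepatocytes hold in quantity but that many other cells express too, CCl4 replicate 3 differed between members. With the 75th percentile scaling and without that array, all 6 were lower at the adjusted p, as were 38.6% of all 166 miRNAs, and 0 reached 2-fold. Their median log2 change was -0.74, against -0.19 for all 166. Without normalization, miR-26a-5p and miR-30a-5p were higher by 0.19 and 0.02 on the log2 scale and the other 4 lower. In CCl4 replicate 3 against the other CCl4 livers, the total signal of miR-101b-3p was lower by 0.81 on the log2 scale. Those of miR-101a-3p, miR-22-3p, miR-26a-5p, miR-30a-5p and miR-378a-3p were higher by 2.12, 1.12, 2.48, 1.59 and 0.97. The median of this difference over the 166 miRNAs was 1.36, so miR-22-3p and miR-378a-3p lay below the median. The larger feature size on that array raised all of these differences by the same amount. miR-378a-3p was the 1 member of this list called with quantile normalization and all arrays (log2 change -1.37, standard error 0.19, limma adjusted p = 0.011). That fit called 20 of the 166 miRNAs (12.0%), 8 of them lower. With the 75th percentile scaling and without CCl4 replicate 3 the change of miR-378a-3p was -0.94, under 2-fold.

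**Figure D4:**
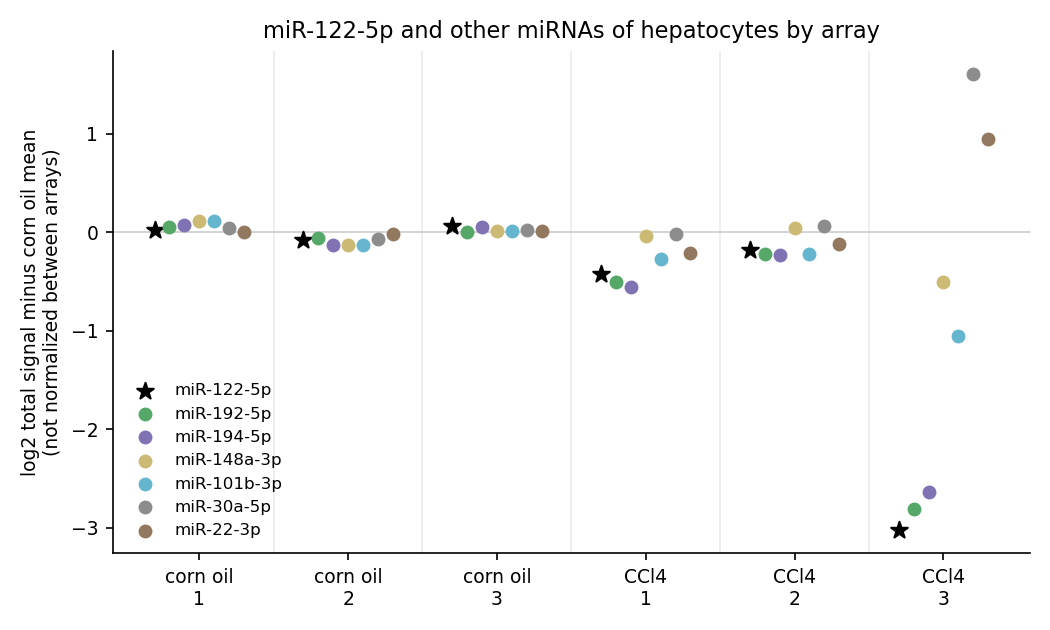
Total signal of miR-122-5p (stars) and 6 other miRNAs of hepatocytes on each array, as the log2 difference from the mean of the corn oil livers, with no normalization between arrays. The larger feature size on CCl4 replicate 3 raises all its points by the same amount. miR-192-5p and miR-194-5p lie close to miR-122-5p on all arrays, while miR-148a-3p and miR-101b-3p fall less in CCl4 replicate 3 and miR-22-3p and miR-30a-5p are higher there.

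The likeness was measured by Pearson's correlation with miR-122-5p over the arrays, in log2 total signal minus the 75th percentile of the array. Over the 6 arrays the 5 most alike were miR-192-5p (r = 0.999), miR-194-5p (0.999), miR-6378 (0.998), miR-92a-3p (0.997) and miR-511-3p (0.996), where the median of the 165 miRNAs was 0.14. These values rest on CCl4 replicate 3, which lies far from the rest, and all miRNAs share the percentile of an array. miR-92a-3p is an example, since its total signal before scaling was 122 to 141 in the corn oil livers and 161 to 226 in the CCl4 livers, higher and not lower. miR-6378 and miR-511-3p were dim, with as few as 2.5% and 25.0% of their spots well above background.

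Over the 5 arrays without CCl4 replicate 3 the most alike were miR-30a-5p (r = 0.999), miR-30c-5p (0.998), miR-194-5p (0.998), miR-192-5p (0.998) and let-7g-5p (0.997), with a median of 0.75 over the 165. miR-30a-5p, miR-30c-5p and let-7g-5p had correlations of 0.59, 0.06 and 0.14 once CCl4 replicate 3 was included. Only miR-192-5p and miR-194-5p were among the 5 most alike in both sets of arrays.

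In CCl4 replicate 3, miR-122-5p lay at the lower end of the 166 miRNAs. Its log2 total signal there was lower than the mean of the other CCl4 livers by 2.73, the lowest difference of all, followed by miR-192-5p at -2.44 and miR-194-5p at -2.24. The next was miR-200a-3p, an epithelial miRNA, at -1.52. Its total signal was 48.1 and 9.32 in CCl4 replicates 1 and 2. In CCl4 replicate 3 it was 7.39, within the corn oil range of 4.76 to 19.3. As few as 10.0% of its spots were well above background. The median difference of the 166 miRNAs was 1.36, and 26 of them were below 0. The larger feature size on CCl4 replicate 3 raised all these differences by the same amount. It therefore moved the median and the count below 0, but not the order. In the other CCl4 livers against the corn oil livers, the difference for miR-122-5p was -0.30, the 13th lowest of the 166, where the median was 0.45 and 31 were below 0.

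**Figure D5:**
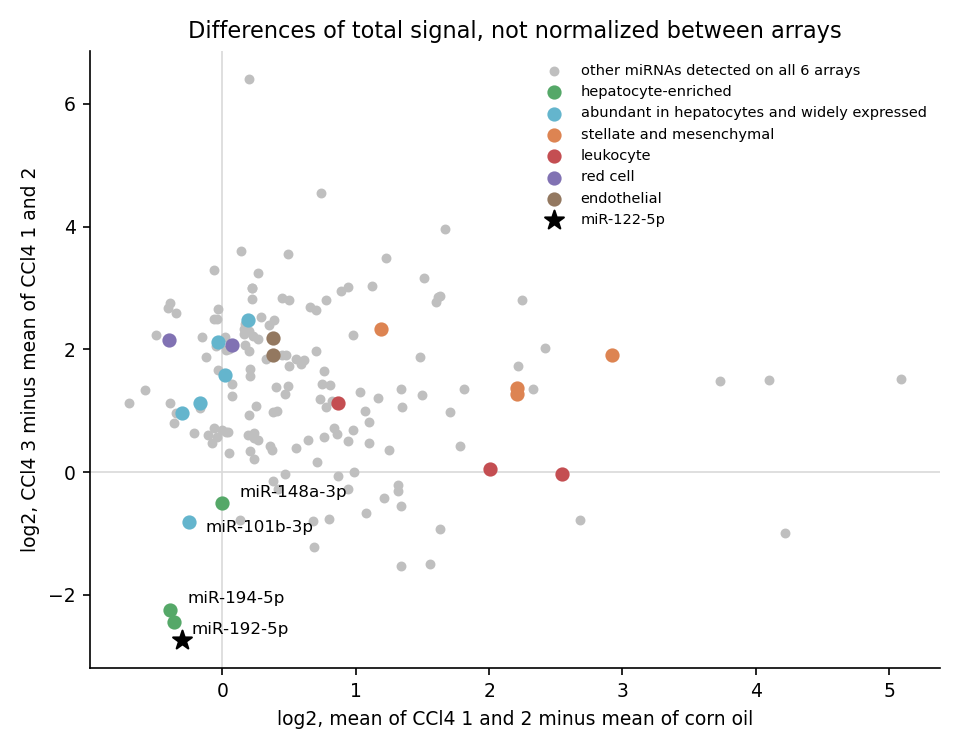
Each point is 1 of the 166 miRNAs detected on all arrays, placed by the log2 difference of CCl4 replicates 1 and 2 from the corn oil livers (horizontal) and of CCl4 replicate 3 from CCl4 replicates 1 and 2 (vertical), without normalization between arrays. miR-122-5p (star) is at -0.30 and -2.73, the lowest point, with miR-192-5p and miR-194-5p beside it. The larger feature size on CCl4 replicate 3 raises all vertical values by the same amount.

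miRNAs of other cell types also differed between the arrays. In whole-liver RNA, fewer hepatocytes and less miR-122 in each hepatocyte cannot be told apart. The stellate and mesenchymal miRNAs, 6 of 6 of which were detected in CCl4 replicates 1 and 3, took 0.0396% to 0.065% of the detected signal in the corn oil livers and 0.363%, 0.146% and 0.39% in the CCl4 livers. miR-199a-3p was the brightest of them, at total signals of 43.6, 35.2 and 58.4 against 324, 132 and 533. Of the 4 tested with quantile normalization and all arrays, 2 were called higher, as were 12 of all 166 miRNAs (7.23%). With the 75th percentile scaling and without CCl4 replicate 3, all 4 were higher at the adjusted p, as were 37 of the 166 (22.3%). The leukocyte miRNAs took 0.0458% to 0.054% in the corn oil livers and 0.268%, 0.199% and 0.145% in the CCl4 livers. Of the 3 leukocyte miRNAs tested with quantile normalization and all arrays, 0 were called, against 20 of all 166 miRNAs (12.0%). With the 75th percentile scaling and without CCl4 replicate 3, 2 of the 3 were higher at the adjusted p, as were 37 of the 166 (22.3%). There miR-146a-5p changed by 0.23 (limma adjusted p = 0.13). miR-223-3p, a miRNA of neutrophils and macrophages, had total signals of 34.2, 30.1 and 35.8 against 223, 170 and 191, with the 3 CCl4 livers well above the corn oil livers. Its quantile-normalized log2 change was 1.18 (standard error 0.50, limma adjusted p = 0.18) and was not called. Without CCl4 replicate 3 it was called, at 1.75 (limma adjusted p = 1.8e-03), in a fit that called 28 of the 166 miRNAs, 16 of them higher. In that fit 87 of the 166 passed the adjusted p. With the 75th percentile scaling miR-223-3p was called at 1.91 (limma adjusted p = 5.7e-05), in a fit that called 26 of the 166 (15.7%). Of the 2 CCl4 livers other than replicate 3, replicate 1 had the lower miR-122-5p and the higher share of both lists. It also had more of the red cell miRNAs (0.412% against 0.18%) and of the bile duct and other epithelial miRNAs (0.0785% against 0.0144%). The endothelial miRNAs took 0.464% against 0.471%. An order of 2 livers cannot show a relation, and none was tested.

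In CCl4 replicate 3 the endothelial, red cell and endocrine lists also stood out. The endothelial miRNAs, the brighter being miR-126-3p, took 1.18% of the detected signal, against 0.332% to 0.471% on the other arrays. The red cell miRNAs took 0.675% against 0.18% to 0.445%, with miR-451a at a total signal of 2050. The 2 endocrine miRNAs, miR-375-3p and miR-7a-5p, had total signals of 769 and 985, where miR-375-3p was not detected on any other array and miR-7a-5p was at 9.65 to 13.5. Of the 3 brain miRNAs, 2 were detected, the brighter being miR-128-3p at 33.9, and miR-9-5p was not. Of all 1247 mouse miRNAs, 334 (26.8%) were detected on that array, more than on any other. The bile duct and other epithelial miRNAs took 0.00533%, against 0.00613% to 0.0785% on the other arrays, and miR-200b-3p was the brightest of them in that array at 9.46. The 4 muscle and 2 pancreatic acinar miRNAs were not detected on any array. The part of these other cell types in the level of miR-122 was not tested.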

How the data were processed

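Total liver RNA of 6 mice was hybridized to Agilent mouse miRNA arrays (miRBase release 19.0 design), 1 array per mouse. The scanner output the authors deposited was made with Feature Extraction 11.0.1.1, and its linear intensities had the background subtracted but no normalization across arrays. An undetected miRNA is given a total signal of 0.1. The authors also deposited a table of quantile-normalized intensities of 111 miRNAs, which were used as an alternative. Groups came from the sample titles.

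After the methods of the study, the log2 totals of the 166 miRNAs found on every array were quantile normalized. Treatment was the single term of the limma model (limma 3.58.1, R 4.3.3), which was first tested on simulated data. Other steps used scipy 1.17.1, pandas 2.3.3 and numpy 2.4.6 under Python 3.11.15, and matplotlib 3.10.9 drew the plots. Shares were tested with an exact permutation test. Control spots were left out, and outlier spots were left out of the spot means summed over probes. Named miRNAs were the arms of miR-122, the members of both hepatocyte lists, the 5 most and 5 least alike in pattern, those brighter than miR-122-5p, and the brightest of each other list. miR-5100, miR-200a-3p, miR-7a-5p, miR-9-5p and miR-146a-5p were named after their values were seen. The members and lists were chosen with earlier results of these data known. Alternatives covered normalization, filter, signal per miRNA, the replicate number as a block and each array left out. Those that combine 2 choices, the median spot signal after normexp (offset 50), and the mean spot signal were chosen after seeing the data. miR-486-5p of the red cell list was not matched on the array. The number of arrays limits the precision.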

Additional observations from a re-analysis of the deposited data

How the results depend on the processing

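miR-122-5p was below 0 and not called in the alternatives with all 6 arrays, from -2.36 with the 75th percentile scaling to -1.21 without normalization. With 1 array left out its log2 change was -2.25 to 0.00, and 0.00 without CCl4 replicate 3, also over the 170 miRNAs detected on the other 5 arrays, because its rank did not vary there. With the replicate number as a block the change was -1.49 (limma adjusted p = 0.46). The block called 6 miRNAs, and same-numbered arrays had correlations of deviations of -0.18, 0.11 and 0.03, so the numbers were not taken as pairs. The difference of the mean log2 share was between -2.19 and -0.34 with 1 array left out, and -1.76 without the 2 brightest miRNAs.

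The number of miRNAs called was 20 (12 higher, 8 lower), 16 with the 75th percentile scaling (11 higher, 5 lower) and 18 without normalization, all higher. It was 32 with detection on all arrays of 1 group (16 higher, 16 lower), 6 without a filter, 12 in the deposited values, 4 with normexp, and 41 or 43 without normalization and CCl4 replicate 3, over 166 or 170 miRNAs. With 1 array left out it was 5 to 28, namely 7, 5 and 6 without corn oil replicates 1, 2 and 3 and 5 without CCl4 replicate 1. The cause was not tested. The planned normexp correction on the mean spot signal was not run, and the median spot signal was used in its place. Signal over background limits miR-122-3p and not miR-122-5p.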

Other observations

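The miRNAs least like miR-122-5p over the 6 arrays, in log2 total signal minus the 75th percentile of the array, were miR-24-3p (r = -0.993), miR-1839-5p (-0.991), miR-652-3p (-0.989), miR-23a-3p (-0.988) and miR-374c-5p (-0.977). Without CCl4 replicate 3 the correlations over 5 arrays were -0.88, -0.83, -0.88, -0.92 and -0.52 in the same order. All miRNAs of an array share its percentile. miR-24-3p and miR-23a-3p, which lie together in the genome, had 100% of their spots well above background on each array. The total signal of miR-24-3p was 200, 186 and 222 in the corn oil livers and 440, 319 and 2913 in the CCl4 livers. That of miR-23a-3p was 120, 109 and 140 in the corn oil livers and 325, 218 and 2178 in the CCl4 livers. For both, the 3 CCl4 livers lay above the corn oil livers, with CCl4 replicate 3 farthest from the rest. Without normalization the median log2 change of the 166 miRNAs was 0.99, so higher totals in the CCl4 livers were common. How many other miRNAs lay above without overlap was not counted. miR-1839-5p, miR-652-3p and miR-374c-5p were dim, with as few as 15.0% to 50% of their spots well above background.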
